A study of Homo sapiens with 8 samples.

Results

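The 46 genes described here encode regulators of pre-mRNA splicing: 12 SR and SR-like proteins, 21 heterogeneous nuclear ribonucleoproteins (hnRNPs, with the related PTBP proteins), 6 regulators known for tissue-specific exons, 3 factors of the 3′ splice site and 4 kinases of SR proteins. They were chosen by gene symbol, and all 46 were found among the 18937 genes of the authors' deposited comparison tables and passed the low-count filter. The cells were HT29, a long-established human colorectal adenocarcinoma line, which is 1 line and thus 1 genetic background. TruSeq RNA v2 libraries, made from total RNA with a kit that does not mark strand, were read on a NextSeq instrument. Cells had received ICG-001 at 10 µM, CWP232228 at 1.5 µM, YB-0158 at 0.3 µM or, as the vehicle that the compounds were set against, DMSO at 0.1%. Each of the 4 groups held 2 libraries, with a labelled time of 48 h except for replicate 2 of ICG-001 and replicate 2 of CWP232228, which are labelled 49 h. ICG-001 and CWP232228 are known as inhibitors of Wnt/beta-catenin signalling, and YB-0158 as a ligand of the RNA-binding protein KHDRBS1. Because the doses differ, the compounds are given side by side and were not tested against each other. The 3 comparisons share the same DMSO libraries, so they are not independent of each other.

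SR proteins carry repeats of arginine and serine next to RNA-binding domains and mostly promote the use of exons they bind, whereas many hnRNPs bind introns or exons and repress them. U2AF recognises the pyrimidine tract and the AG at the end of an intron, and CLK and SRPK kinases set the activity and location of SR proteins by phosphorylation. Many of these genes limit their own level through alternative transcripts: a poison exon or a retained intron brings a premature stop codon, so that the RNA stays in the nucleus or is removed by nonsense-mediated decay (NMD). In epithelial cells such as those of the colon, ESRP1 and ESRP2 maintain the epithelial exon pattern.

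Because the results on transcripts turn on a few introns and exons of this kind, their ends are given first, read from GENCODE release 29 transcripts on GRCh38. For introns, the line for the start gives the last 3 bases of the exon and the first 9 of the intron. The line for the end gives the last 20 bases of the intron and the first 3 of the next exon, with the GT and AG dinucleotides at the intron's ends in capitals. Transcript CLK1-210 keeps intron 3 (chr2:200860216-200861237, minus strand, 1022 bases, 32.6% GC) and intron 4 (chr2:200859747-200860124, 378 bases, 26.2% GC) of the coding transcript CLK1-201, on both sides of exon 4. CLK4-203, from the gene of the paralogous kinase, keeps the same pair of introns of CLK4-201 (chr5:178617435-178618555, 1121 bases, and chr5:178616949-178617343, 395 bases, minus strand). The 12 bases given for the start of intron 4, the last 3 of exon 4 and the first 9 of the intron, are the same in both genes. SRSF5-212 keeps intron 5 of SRSF5-205 (chr14:69769252-69770466, plus strand, 1215 bases, 36.4% GC), SRSF4-208 keeps intron 2 of SRSF4-201 (chr1:29159487-29160374, minus strand, 888 bases, 29.8% GC), and SRSF7-208, which is annotated to NMD, keeps intron 3 of SRSF7-209 (chr2:38748654-38749528, minus strand, 875 bases, 35.9% GC).
CLK1 intron 3 start: gggGTatgaacg
CLK1 intron 3 end: cgcccacttgacgtttccAGaag
CLK1 intron 4 start: gatGTatagaat
CLK1 intron 4 end: gatttatttctctcttttAGatg
CLK4 intron 3 start: tcgGTatgattg
CLK4 intron 3 end: ctgcccacttgccgttccAGaag
CLK4 intron 4 start: gatGTatagaat
CLK4 intron 4 end: tttttccctcctcactctAGatg
SRSF5 intron 5 start: cagGTttgttga
SRSF5 intron 5 end: cacaattatcttgtgttaAGgat
SRSF4 intron 2 start: gcaGTaagcatt
SRSF4 intron 2 end: tttatttgaaccttccaaAGgtg
SRSF7 intron 3 start: cagGTatttatt
SRSF7 intron 3 end: ttctctaacttgaaaaatAGgtc

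For transcripts that the annotation assigns to NMD, the stretch up to the premature stop codon is given, with the stop codon in capitals. In SRSF7-208 the reading frame runs out of the exon and ends 13 bases into the retained intron. In SRSF6-202 it ends in a poison exon of 268 bases (chr20:43459153-43459420, plus strand), of which the first 152 bases are shown (chr20:43459153-43459304). In TRA2B-206 it ends in an exon of 276 bases (chr3:185931577-185931852, minus strand), of which the first 81 are shown, and in SRSF3-203 in an exon of 456 bases (chr6:36599821-36600276, plus strand), of which the first 34 are shown.
SRSF7-208 exon end to stop: aagaagaagcaggtatttatttTAA
SRSF6-202 exon to stop: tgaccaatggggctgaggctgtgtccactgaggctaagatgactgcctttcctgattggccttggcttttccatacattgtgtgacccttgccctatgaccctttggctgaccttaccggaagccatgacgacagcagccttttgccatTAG
TRA2B-206 exon to stop: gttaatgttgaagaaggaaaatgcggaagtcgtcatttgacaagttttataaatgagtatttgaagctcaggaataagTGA
SRSF3-203 exon to stop: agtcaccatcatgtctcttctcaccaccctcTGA

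The libraries held 29071547 to 58489118 estimated reads. Whether the 2 libraries of a group were made from independent cultures is not labelled. A p-value here therefore speaks only to the spread between libraries, which may be technical. The fits take that spread as equal in every group, so a p-value does not allow for a wider one in DMSO. The 2 replicates differed most in DMSO: the log2 difference between them had an SD across 8568 genes of 0.12 for ICG-001, 0.13 for CWP232228, 0.11 for YB-0158 and 0.30 for DMSO. Across these genes, which share a library's preparation and are not independent, the log2 value of replicate 1 minus that of replicate 2 followed GC content. Spearman's rho was 0.79, 0.60 and 0.56 in the 3 compound groups and -0.61 in DMSO. Members are therefore given with and without a correction for GC content and length. All 10 colon epithelium markers were detected in every library, with EPCAM at 449 to 709 TPM. Markers of endothelium (4), fibroblasts (6) and neurons (4) summed to at most 0.712, 4.22 and 1.75 TPM, and the leukocyte markers other than LYZ to at most 4.32 TPM, with PTPRC at or below 0.0084 TPM. LYZ was at 2482 to 2838 TPM.

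At the level of the whole gene, 15 of the 46 members rose and 12 fell with ICG-001, 18 rose and 3 fell with CWP232228, and 13 rose and 13 fell with YB-0158 (Benjamini-Hochberg adjusted p under 0.05 in edgeR's quasi-likelihood test over 16449 genes, hereafter called). The 58.7% of members called with ICG-001 stood beside 48.8% of all genes tested (24.8% higher and 24% lower). With CWP232228, 45.7% of members were called beside 42.8% of all genes (21.6% higher and 21.2% lower), and with YB-0158 56.5% beside 43.8% (21.7% higher and 22.1% lower). The median log2 fold change of the members was 0.06 with ICG-001, 0.18 with CWP232228 and 0.08 with YB-0158, and that of all genes 0.03, 0.04 and 0.02. Fold changes of genes are on the log2 scale throughout, and a positive one means a higher level than in DMSO. These counts were not tested against those of all genes, and nothing particular to the members is read from them. In bulk RNA, a change in the number of cells of a kind and in the RNA per cell cannot be told apart.

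**Figure D1:**
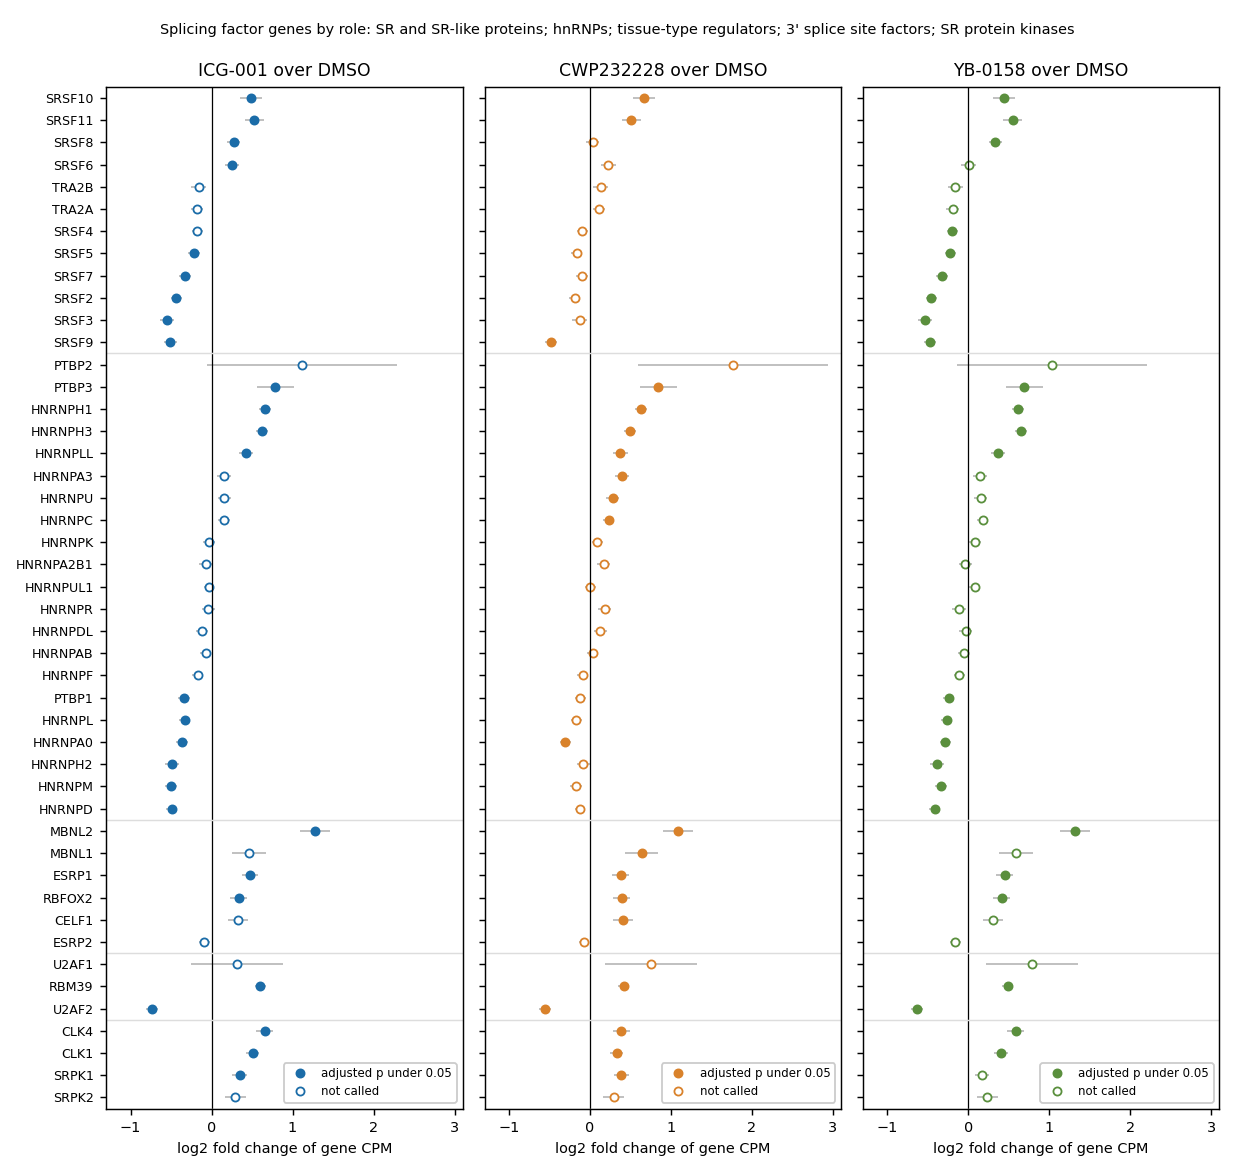
Log2 fold change of gene-level CPM for the 46 members (rows, grouped by role) with ICG-001, CWP232228 and YB-0158 over DMSO, n = 2 libraries per group; points are the fitted values, grey bars their SE, and filled points have an adjusted p under 0.05. MBNL2 lies furthest right among the filled points (1.27, 1.09 and 1.32) and U2AF2 furthest left (-0.73, -0.56 and -0.63), while the bars of PTBP2 and U2AF1 are the widest.

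Among the 12 SR and SR-like genes, 5 fell and 4 rose with ICG-001, 1 fell and 2 rose with CWP232228, and 6 fell and 3 rose with YB-0158. The median log2 fold changes were -0.18, -0.03 and -0.20. With the correction for GC content and length given further on, SRSF6 and SRSF8, called higher with ICG-001, came to -0.061 and -0.043, not called, and SRSF8 with CWP232228 moved to -0.31, called, against 0.03 without it. SRSF3 is the smallest classical SR protein and also a factor of mRNA export. It was at 188 and 210.2 CPM with ICG-001, 248 and 285 with CWP232228 and 196 and 206 with YB-0158, against 289.8 and 293 CPM in DMSO. Its log2 fold change was -0.55 (SE 0.09, edgeR adjusted p = 0.00138) with ICG-001, -0.13 (SE 0.09, edgeR adjusted p = 0.26) with CWP232228 and -0.54 (SE 0.09, edgeR adjusted p = 0.00177) with YB-0158. The CWP232228 libraries lay nearest to DMSO, though still below it. SRSF2 is a nuclear speckle protein that binds exonic enhancers. It was at 222 and 218 CPM with ICG-001, 249 and 272 with CWP232228 and 215 and 219 with YB-0158, against 308 and 287 CPM in DMSO. It fell by 0.43 on the log2 scale with ICG-001 and by 0.46 with YB-0158, and was at -0.19 with CWP232228, short of the threshold, and at -0.20, called, with the correction.

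SRSF9 is an SR protein with a short RS domain. It was at 157 and 164 CPM with ICG-001, 157 and 171 with CWP232228 and 168 and 162 with YB-0158, against 218 and 239 CPM in DMSO. It fell in each comparison (-0.51 with ICG-001, -0.48 with CWP232228 and -0.47 with YB-0158), with no overlap between the libraries. Such a lack of overlap was common among the members: of the 46, 20 lay above and 20 below both DMSO libraries with ICG-001. With CWP232228 these were 27 and 13, and with YB-0158 23 and 21. The share over all genes is not given here, so nothing particular to the members is read from these counts. SRSF7 binds exonic enhancers and takes part in mRNA export. It was at 137 and 142 CPM with ICG-001, 156 and 173 with CWP232228 and 141 and 140.3 with YB-0158, against 171 and 181 CPM in DMSO. Its log2 fold change was -0.33 (SE 0.07, edgeR adjusted p = 0.0068) with ICG-001, -0.09 (SE 0.07, edgeR adjusted p = 0.34) with CWP232228 and -0.32 (SE 0.07, edgeR adjusted p = 0.00897) with YB-0158. With the correction for GC content and length the CWP232228 value was -0.30 and called lower (edgeR adjusted p = 0.008). Its ICG-001 call was lost without replicate 1 of ICG-001 (-0.30, edgeR adjusted p = 0.054), and its YB-0158 call without replicate 1 (-0.33, edgeR adjusted p = 0.054) or replicate 2 of YB-0158 (-0.31, edgeR adjusted p = 0.066).

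SRSF10 and SRSF11 stood on the other side. SRSF10 represses splicing when it is dephosphorylated. It was at 177 and 197 CPM with ICG-001, 196 and 227 with CWP232228 and 176 and 185 with YB-0158, against 152 and 114 CPM in DMSO. It rose in each comparison (0.49 with ICG-001, 0.66 with CWP232228 and 0.44 with YB-0158), but DMSO replicate 2 lay well below DMSO replicate 1. The call was lost without replicate 2 of ICG-001 (0.41, edgeR adjusted p = 0.12), of CWP232228 (0.56, edgeR adjusted p = 0.066) and, with YB-0158, without either YB-0158 library (edgeR adjusted p = 0.096 and 0.14) or DMSO replicate 2 (0.23, edgeR adjusted p = 0.082). SRSF11 is an SR-related protein that binds U2AF2. It averaged 162 ± 1.69 CPM with ICG-001, 159.9 ± 17 with CWP232228 and 164 ± 8.81 with YB-0158, against 112 ± 18.3 CPM in DMSO (SD, n = 2 each), and rose by 0.53 with ICG-001, 0.51 with CWP232228 and 0.55 with YB-0158. Its CWP232228 call ended without replicate 2 of CWP232228 (0.40, edgeR adjusted p = 0.091) and its YB-0158 call without replicate 1 of YB-0158 (0.48, edgeR adjusted p = 0.051). TRA2A and TRA2B, paralogues that bind purine-rich exonic enhancers, were not called in any comparison without the correction, with fold changes between -0.19 and 0.13. With it TRA2A was called lower with ICG-001 (-0.19) and YB-0158 (-0.17). The authors' deposited tables call TRA2B lower with ICG-001 (-0.45) and YB-0158 (-0.39) and not with CWP232228 (-0.16). For SRSF6, the matched transcripts held 55.3% of the authors' mean, so its level here is partial.

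The 21 hnRNP genes split as well: 4 rose and 6 fell with ICG-001, 7 rose and 1 fell with CWP232228, and 4 rose and 6 fell with YB-0158, with medians of -0.04, 0.13 and -0.03. With the correction for GC content and length HNRNPU, called higher with CWP232228, came to -0.010 there, not called, and to -0.11 with ICG-001, called lower, and HNRNPAB, not called without it, came to 0.16 with ICG-001, 0.28 with CWP232228 and 0.15 with YB-0158, called higher with ICG-001 and CWP232228. HNRNPH1 binds runs of G. It was at 431 and 447 CPM with ICG-001, 413 and 446 with CWP232228 and 429 and 421 with YB-0158, against 291 and 264 CPM in DMSO. Its log2 fold change was 0.66 (SE 0.08, edgeR adjusted p = 0.000286) with ICG-001, 0.63 (SE 0.08, edgeR adjusted p = 0.00109) with CWP232228 and 0.61 (SE 0.08, edgeR adjusted p = 0.000461) with YB-0158. HNRNPH3 is a shorter relative. It was at 162 and 171 CPM with ICG-001, 147 and 157.9 with CWP232228 and 169 and 171 with YB-0158, against 111 and 106 CPM in DMSO, and rose by 0.62, 0.49 and 0.65 in the same order. The libraries of these genes did not overlap between any compound and DMSO, and their calls held with each library left out in turn.

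HNRNPH2, on the X chromosome, and HNRNPF, whose proteins resemble that of HNRNPH1, were not called higher. HNRNPH2 was at 81.8 and 92 CPM with ICG-001, 112 and 119 with CWP232228 and 93.6 and 92.3 with YB-0158, against 128 and 116 CPM in DMSO, and fell by 0.49 with ICG-001 and 0.39 with YB-0158, with -0.08 under CWP232228, not called. With the correction for GC content and length the CWP232228 value was -0.35 and called lower (edgeR adjusted p = 0.0014). Its YB-0158 call ended without replicate 2 of YB-0158 (-0.38, edgeR adjusted p = 0.055). The readthrough gene RPL36A-HNRNPH2 shares its sequence and took 213 to 448 reads per library, so the level is uncertain to that extent. HNRNPF was not called (-0.17 with ICG-001, -0.09 with CWP232228 and -0.11 with YB-0158), but with the correction it was called lower with ICG-001 (-0.18) and YB-0158 (-0.12).

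HNRNPD, HNRNPM and HNRNPA0 were among the hnRNPs called lower. HNRNPD is also known as the AU-rich element binding protein AUF1. It was at 211 and 224 CPM with ICG-001, 277 and 285 with CWP232228 and 224 and 234 with YB-0158, against 299.7 and 311 CPM in DMSO. It fell by 0.49 with ICG-001 and by 0.42 with YB-0158, and the CWP232228 libraries lay nearer to DMSO (-0.12, not called). HNRNPM binds GU-rich RNA. It was at 192 and 205 CPM with ICG-001, 245 and 254 with CWP232228 and 224 and 221 with YB-0158, against 267 and 295 CPM in DMSO. Its fold changes were -0.50 with ICG-001 and -0.34 with YB-0158, both called, and -0.17 with CWP232228, not called. The authors' deposited tables give it -0.22 with ICG-001, 0.07 with CWP232228 and -0.01 with YB-0158, with no adjusted p under 0.05. Of 9 other settings of the processing, 7 kept the ICG-001 call and 7 the YB-0158 call. The YB-0158 value ranged from -0.35 to -0.0027 among them. Without replicate 2 of YB-0158 the YB-0158 call ended (-0.32, edgeR adjusted p = 0.058). HNRNPA0 is encoded by an intronless gene and known to bind AU-rich elements. It was at 160.4 and 163 CPM with ICG-001, 168 and 169 with CWP232228 and 168 and 174 with YB-0158, against 219 and 197 CPM in DMSO, and fell by 0.36, 0.30 and 0.28 with ICG-001, CWP232228 and YB-0158. Its CWP232228 and YB-0158 calls ended without any 1 library of the compound, with edgeR adjusted p between 0.065 and 0.093.

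The 3 PTBP genes bind pyrimidine tracts and repress exons. PTBP1 is the general form. It was at 365 and 355 CPM with ICG-001, 430.4 and 409 with CWP232228 and 381 and 389 with YB-0158, against 476 and 436 CPM in DMSO. It fell by 0.34 with ICG-001 and by 0.24 with YB-0158, and was at -0.12 with CWP232228, not called. The YB-0158 call ended without replicate 1 (edgeR adjusted p = 0.13) or replicate 2 of YB-0158 (edgeR adjusted p = 0.11). PTBP3 is a paralogue. It was at 166 and 183 CPM with ICG-001, 174 and 189 with CWP232228 and 154 and 172 with YB-0158, against 127 and 74.7 CPM in DMSO, and rose by 0.79, 0.84 and 0.69. DMSO replicate 2 lay far below DMSO replicate 1. The PTBP3 calls ended without replicate 1 or replicate 2 of ICG-001 (edgeR adjusted p = 0.067 and 0.11), of CWP232228 (0.071 and 0.11) and of YB-0158 (0.11 and 0.18). PTBP2 is the form known from neurons. It was at 1.05 and 9.98 CPM with ICG-001, 6.25 and 10.7 with CWP232228 and 3.9 and 6.43 with YB-0158, against 1.01 and 4 CPM in DMSO. Its matched transcripts held 36.5% of the authors' mean, its ICG-001 and YB-0158 libraries overlapped with DMSO, and it was not called (1.12 with ICG-001, 1.76 with CWP232228 and 1.04 with YB-0158, with an SE of 1.17 each). On the authors' deposited FPKM, limma gave it log2 fold changes of 1.21, 1.07 and 1.04 (adjusted p = 0.022, 0.044 and 0.038).

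U2AF2, the large subunit of U2AF that binds the pyrimidine tract, fell in each comparison. It was at 303 and 278 CPM with ICG-001, 341 and 317 with CWP232228 and 319 and 307 with YB-0158, against 485 and 483 CPM in DMSO. Its log2 fold change was -0.73 (SE 0.07, edgeR adjusted p = 0.00015) with ICG-001, -0.56 (SE 0.07, edgeR adjusted p = 0.00138) with CWP232228 and -0.63 (SE 0.07, edgeR adjusted p = 0.000342) with YB-0158. Every library of a compound lay below both DMSO libraries, and the calls held with each library left out in turn. RBM39, a protein related to U2AF2 that works with it at the 3′ splice site, went the other way, at 345 and 370.2 CPM with ICG-001, 310.4 and 317 with CWP232228 and 327 and 331 with YB-0158, against 237 and 234 CPM in DMSO. Its log2 fold changes of 0.60 with ICG-001, 0.42 with CWP232228 and 0.48 with YB-0158 were called and also held with each library left out. With the correction for GC content and length RBM39 came to 0.47 with ICG-001, 0.23 with CWP232228 and 0.41 with YB-0158, still called. U2AF1, the small subunit that reads the AG, shares its sequence with the near-identical copy U2AF1L5, which took 1435 to 3877 reads per library beside 313 to 2439 for U2AF1, so its level is uncertain (SE 0.57 with ICG-001) and it was not called.

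Of the 6 regulators of tissue-specific exons, 3 rose with ICG-001, 5 with CWP232228 and 3 with YB-0158, and none fell, with medians of 0.40, 0.40 and 0.43. With the correction for GC content and length RBFOX2 was not called in any comparison, MBNL1 with ICG-001 and CELF1 with ICG-001 and YB-0158 lay below 0, and ESRP2 turned above 0, to 0.10 with ICG-001, 0.16 with CWP232228 and 0.0042 with YB-0158, called with CWP232228. MBNL2 binds YGCY motifs and, with MBNL1, is sequestered by CUG repeats in myotonic dystrophy. It was at 92.6 and 100.2 CPM with ICG-001, 81.1 and 88.2 with CWP232228 and 94.7 and 104 with YB-0158, against 48.5 and 31.2 CPM in DMSO. Its log2 fold change was 1.27 (SE 0.18, edgeR adjusted p = 0.00143) with ICG-001, 1.09 (SE 0.19, edgeR adjusted p = 0.00446) with CWP232228 and 1.32 (SE 0.19, edgeR adjusted p = 0.0014) with YB-0158, the largest rise among the called members. Its calls held with each library left out although the DMSO libraries themselves lay apart. MBNL1 was at 144 and 157.8 CPM with ICG-001, 164 and 177 with CWP232228 and 160.3 and 169 with YB-0158, against 136 and 82.9 CPM in DMSO, and passed the threshold with CWP232228 (0.64, SE 0.21, edgeR adjusted p = 0.045), with 0.46 for ICG-001 and 0.59 for YB-0158, not called. The MBNL1 call ended without either CWP232228 library (edgeR adjusted p = 0.10 and 0.17).

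ESRP1 maintains epithelial splicing. It was at 204 and 214 CPM with ICG-001, 193 and 199 with CWP232228 and 201 and 209.7 with YB-0158, against 167 and 134 CPM in DMSO. It rose in each comparison (0.48 with ICG-001, 0.38 with CWP232228 and 0.45 with YB-0158), and the call ended without either CWP232228 library (edgeR adjusted p = 0.068 and 0.11) and without replicate 2 of YB-0158 (0.056). Its paralogue ESRP2 was at 99.3 and 95.1 CPM with ICG-001, 98.2 and 97.9 with CWP232228 and 92.5 and 92.2 with YB-0158, against 104 and 103 CPM in DMSO, and was not called. RBFOX2 binds UGCAUG and is known to favour mesenchymal exons. It was at 66.3 and 72.1 CPM with ICG-001, 71.6 and 72.2 with CWP232228 and 72.8 and 73.1 with YB-0158, against 60.7 and 48.9 CPM in DMSO, with fold changes of 0.34 with ICG-001, 0.39 with CWP232228 and 0.41 with YB-0158, called. Its calls ended without any 1 library of the compound concerned (edgeR adjusted p between 0.054 and 0.15), and the ICG-001 call also without DMSO replicate 2 (0.083). Without the correction for GC content and length, the mRNA of ESRP1 and that of RBFOX2 were thus both higher than in DMSO. Only the ESRP1 call with ICG-001 held with each library left out. With the correction RBFOX2 was at 0.04 with ICG-001, 0.14 with CWP232228 and 0.09 with YB-0158, not called. ESRP1 was then at 0.04 with CWP232228, not called, and still called higher with ICG-001 and YB-0158.

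Of the 4 kinases that phosphorylate SR proteins, 3 rose with ICG-001, 3 with CWP232228 and 2 with YB-0158 and none fell, but with the correction for GC content and length SRPK1 in each comparison and CLK1 and CLK4 with CWP232228 lay below 0. The medians without the correction were 0.43, 0.36 and 0.32. CLK1 is a nuclear kinase of SR proteins. It was at 63.5 and 70.4 CPM with ICG-001, 57.3 and 61.1 with CWP232228 and 61.5 and 63 with YB-0158, against 46.2 and 47.9 CPM in DMSO. Its log2 fold change was 0.51 (SE 0.08, edgeR adjusted p = 0.0014) with ICG-001, 0.33 (SE 0.08, edgeR adjusted p = 0.013) with CWP232228 and 0.40 (SE 0.08, edgeR adjusted p = 0.00464) with YB-0158. CLK4 is its close relative. It was at 14 and 13.6 CPM with ICG-001, 10.6 and 12.3 with CWP232228 and 12.9 and 13.4 with YB-0158, against 8.69 and 8.84 CPM in DMSO, and rose by 0.66, 0.39 and 0.58 with ICG-001, CWP232228 and YB-0158. Without replicate 2 of CWP232228 the CWP232228 calls of CLK1 (0.29, edgeR adjusted p = 0.096) and CLK4 (0.28, edgeR adjusted p = 0.14) ended. SRPK1, a mainly cytoplasmic kinase of SR proteins, rose by 0.35 with ICG-001 and 0.39 with CWP232228, and was at 0.17 with YB-0158, not called. Each SRPK1 call ended without replicate 2 of its compound (edgeR adjusted p = 0.092 and 0.076).

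**Figure D2:**
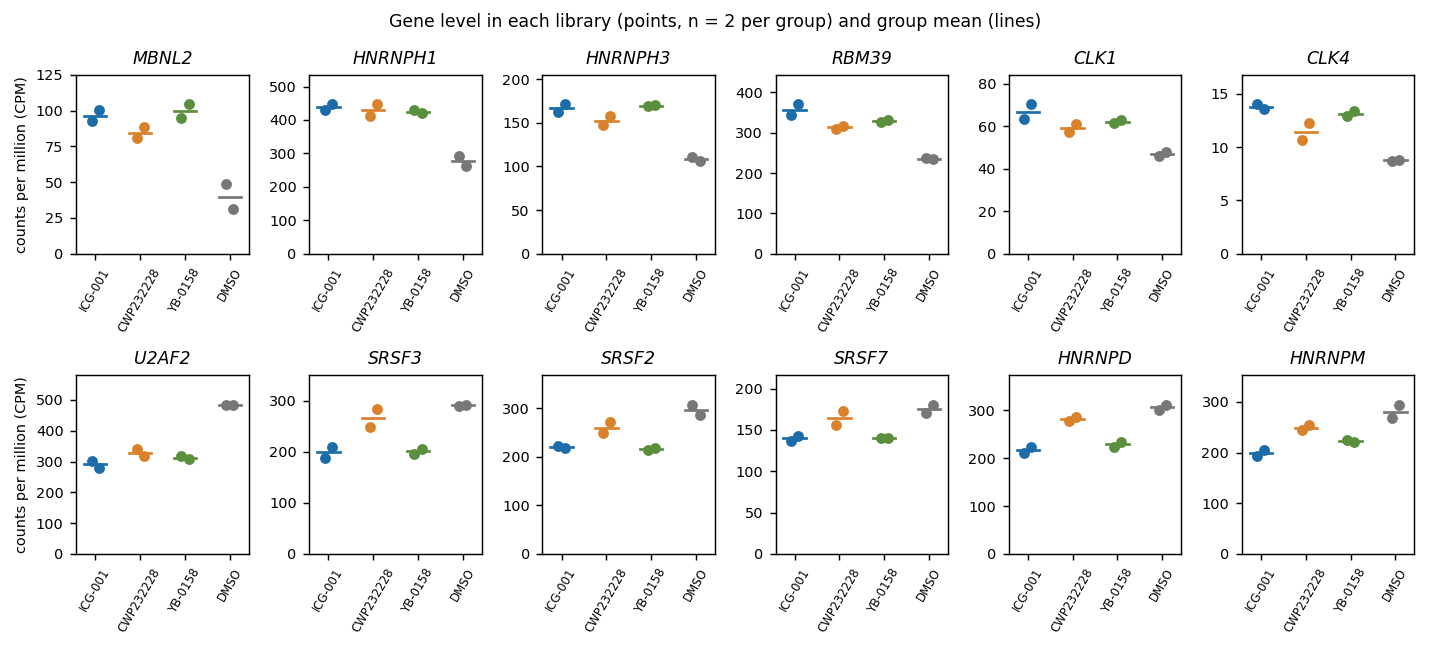
Gene-level CPM (y axis from 0) in each library for 12 members, with ICG-001, CWP232228 and YB-0158 left of DMSO; points are libraries (n = 2 per group) and lines group means. In the upper row (MBNL2, HNRNPH1, HNRNPH3, RBM39, CLK1, CLK4) the compound libraries lie above both DMSO libraries, and in the lower row (U2AF2, SRSF3, SRSF2, SRSF7, HNRNPD, HNRNPM) below them, except that 1 CWP232228 library of SRSF7 (173 CPM) lies within the range of DMSO.

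Compared per length within DMSO, the members spanned a wide range: HNRNPA2B1 was the highest at 780.2 TPM (mean of 2 libraries), followed by PTBP1 at 749.8 and HNRNPK at 741 TPM, and CLK4 at 6.19 and PTBP2 at 1.43 TPM were the lowest. HNRNPA2B1 and HNRNPK, abundant hnRNPs that shuttle between nucleus and cytoplasm, were not called in any comparison (-0.07 with ICG-001, 0.17 with CWP232228 and -0.04 with YB-0158 for HNRNPA2B1, and -0.03 with ICG-001, 0.09 with CWP232228 and 0.08 with YB-0158 for HNRNPK). With the correction for GC content and length HNRNPA2B1 was called lower with ICG-001 (-0.22, edgeR adjusted p = 0.0028) and YB-0158 (-0.13, edgeR adjusted p = 0.034) and came to -0.02 with CWP232228. HNRNPLL, the paralogue of the CA-repeat binding protein HNRNPL, rose in each comparison (0.43 with ICG-001, 0.38 with CWP232228 and 0.36 with YB-0158), and the call ended without replicate 2 of CWP232228 (edgeR adjusted p = 0.079) or of YB-0158 (0.081). The remaining members were, without the correction, called in at most 2 comparisons each, with fold changes between -0.33 (HNRNPL with ICG-001) and 0.41 (CELF1, which binds GU-rich RNA, with CWP232228), or were not called.

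The correction for GC content and length moved many of these values. The median GC content of the members was 42.8% among those higher and 47.8% among those lower with ICG-001, 42.9% and 51.8% with CWP232228, and 42.8% and 48.1% with YB-0158, against 43.9% for all members. After it, 13 members were higher and 18 lower with ICG-001, 8 and 8 with CWP232228, and 14 and 17 with YB-0158. The shares of all genes called after the correction are not given here, and nothing particular to the members is read from these counts. Called in the same direction with and without it were 11 higher and 11 lower with ICG-001, 6 and 3 with CWP232228, and 11 and 11 with YB-0158. The median shifted to -0.06, 0.02 and -0.05. The split between higher and lower thus depended on this correction, and most of all with CWP232228.

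HNRNPH1 kept its size (0.66 with ICG-001, 0.56 with CWP232228 and 0.65 with YB-0158 after correction), as did SRSF3 with ICG-001 and YB-0158 (-0.53 and -0.49). MBNL2 came to 0.81 with ICG-001, 0.51 with CWP232228 and 0.97 with YB-0158, U2AF2 to -0.42 with ICG-001, -0.19 with CWP232228 and -0.34 with YB-0158 and SRSF9 to -0.23 with ICG-001, -0.21 with CWP232228 and -0.23 with YB-0158, all still called. SRSF10 came to 0.17 with ICG-001, 0.27 with CWP232228 and 0.20 with YB-0158, still called, and PTBP3 to 0.14 with ICG-001, 0.07 with CWP232228 and 0.16 with YB-0158, no longer called with CWP232228. HNRNPA0 moved the other way, further down to -1.11 with ICG-001, -1.13 with CWP232228 and -0.94 with YB-0158. The calls lost were 5 with ICG-001 (SRSF6, SRSF8, PTBP1, RBFOX2 and SRPK1), 12 with CWP232228 (SRSF11, HNRNPA3, HNRNPLL, HNRNPU, PTBP3, ESRP1, RBFOX2, MBNL1, CELF1, CLK1, CLK4 and SRPK1) and 4 with YB-0158 (SRSF8, HNRNPL, PTBP1 and RBFOX2). The calls gained with ICG-001 were 2 higher (HNRNPAB and HNRNPC) and 7 lower (SRSF4, TRA2A, HNRNPA2B1, HNRNPDL, HNRNPF, HNRNPR and HNRNPU). With CWP232228 they were 2 higher (HNRNPAB and ESRP2) and 5 lower (SRSF2, SRSF5, SRSF7, SRSF8 and HNRNPH2), and with YB-0158 3 higher (HNRNPC, HNRNPUL1 and MBNL1) and 6 lower (SRSF6, TRA2A, HNRNPA2B1, HNRNPF, HNRNPR and SRPK1). Of the 138 member values, 29 changed sign, 13 of them called with or without the correction. The values of SRPK1 (-0.04 with ICG-001, -0.05 with CWP232228 and -0.16 with YB-0158) turned below 0, as did CLK1 and CLK4 with CWP232228 (-0.04 and -0.0028), while CLK1 stood at 0.26 with ICG-001 and 0.27 with YB-0158, still called. ESRP1 came to 0.18 with ICG-001, 0.04 with CWP232228 and 0.20 with YB-0158. How far the GC difference between libraries accounts for these shifts was not tested.

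**Figure D3:**
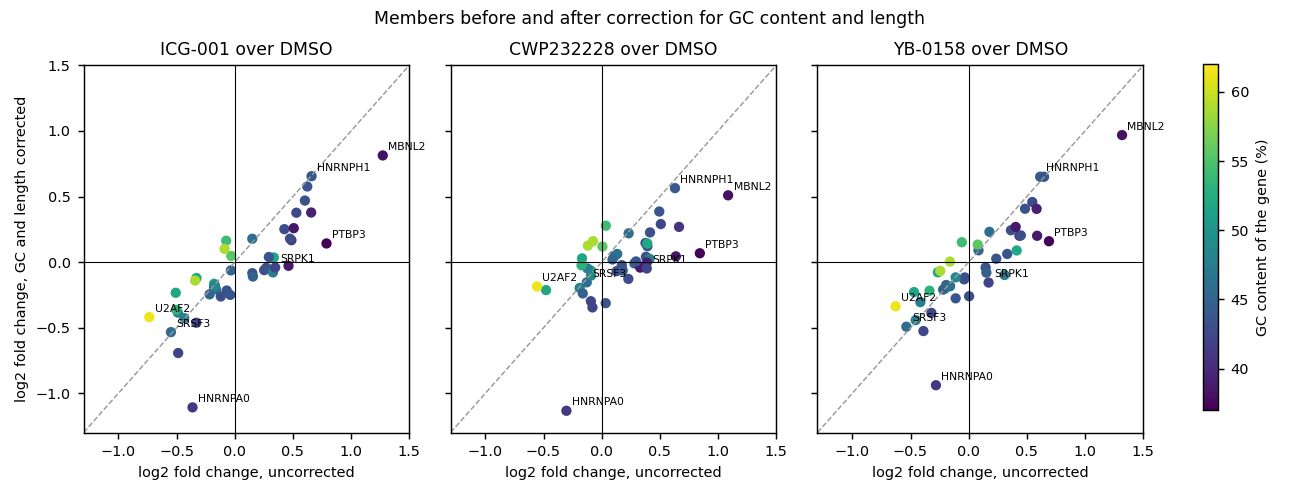
Log2 fold change over DMSO of 44 members without (x axis) and with (y axis) the correction for GC content and length, for ICG-001, CWP232228 and YB-0158, coloured by the GC content of the gene in percent; PTBP2 and U2AF1, whose levels are partial or uncertain, are left out. Points on the dashed diagonal keep their value, as HNRNPH1 nearly does, while MBNL2 and PTBP3 lie below it, U2AF2 above it and HNRNPA0 far below.

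The authors' deposited table for ICG-001, from their own processing, calls 16 members higher and 12 lower, that for CWP232228 13 and 6, and that for YB-0158 17 and 11. Of these, 24, 15 and 21 were also called in the fits above, and none in the opposite direction. On the authors' deposited FPKM with limma, 13 were higher and 11 lower with ICG-001, 11 and 6 with CWP232228, and 16 and 10 with YB-0158.

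Beyond the level of a gene, the share of its reads that each transcript took was tested with edgeR's diffSpliceDGE over 11611 genes, of which 3.77% were called with ICG-001, 3.43% with CWP232228 and 3.15% with YB-0158. Of the members, 2, 3 and 2 were called. SRSF5 was called with ICG-001 (edgeR adjusted p = 0.0014) and CWP232228 (edgeR adjusted p = 0.0097). Its retained-intron transcript SRSF5-212, whose intron ends are given above, took, of the gene's reads, 34.7% and 33.2% with ICG-001, 30.2% and 31.9% with CWP232228 and 35.2% and 34.6% with YB-0158, against 19.9% and 16.1% in DMSO. The other called members were chosen after their values were seen: HNRNPUL1 with ICG-001 and YB-0158 (edgeR adjusted p = 0.00024 and 2.0e-06), RBM39 and SRSF10 with CWP232228 (0.021 and 0.034) and HNRNPD with YB-0158 (0.022). In these the share that moved most changed by 3.6 to 8.2 percentage points. The HNRNPUL1 calls held with each library left out in turn (edgeR adjusted p of at most 0.04 with ICG-001 and 0.014 with YB-0158). They lay in its minor transcripts: those with a mean share of at least 3% had unadjusted p of at least 0.17 in both comparisons, and limma's diffSplice did not call the gene (adjusted p = 0.65 and 0.32). The SRSF5 call with ICG-001 ended without either ICG-001 library (0.11 and 0.071) or DMSO replicate 2 (0.058), and that with CWP232228 without replicate 1 of CWP232228 (0.86) or either DMSO library (0.11 and 0.17). The calls of RBM39, SRSF10 and HNRNPD ended without any 1 of their 4 libraries, with edgeR adjusted p between 0.055 and 0.53. With limma's diffSplice 24, 10 and 20 members were called, and with a stricter filter on transcripts 0 in each comparison, so these counts depend on the method. The shares of all genes called in these 2 settings are not given here, and nothing particular to the members is read from the counts.

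Large moves that were not called were seen in SRPK1 and SRSF2, both chosen after their values were seen. SRPK1-205 took 9.44% and 0% with ICG-001, 12.5% and 15.8% with CWP232228 and 5.25% and 11.1% with YB-0158, against 74.8% and 71.1% in DMSO. SRPK1-202, which differs from it in the donor site of the first exon, took 72.4% and 80.2% with ICG-001, 67% and 66.8% with CWP232228 and 71.1% and 67.6% with YB-0158, against 0% and 17.7% in DMSO. The Simes adjusted p of SRPK1 was 0.26, 0.42 and 0.41. Salmon divides reads between such similar transcripts by a model, so these shares are uncertain. The coding transcript SRSF2-202 took 45.7% and 47.3% with ICG-001, 54.3% and 54.6% with CWP232228 and 52.2% and 51.1% with YB-0158, against 67.8% and 68.7% in DMSO.

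Transcripts that the annotation calls retained intron were then summed per gene and their share tested against the rest of the gene. This class was added after the data had been examined. Of 31 members with such transcripts, 6 had a higher share with ICG-001, 7 with CWP232228 and 3 with YB-0158, and none a lower one. Over all 5339 genes with the class, 2.3%, 1.69% and 1.16% were called higher. The share moved upwards in 28 of the 31 members in each comparison, with median log2 usage changes of 0.83, 0.83 and 0.70. Over all genes 75.0%, 74.8% and 75.0% moved upwards, with medians of 0.48, 0.47 and 0.45, so the upward move was also that of most genes. Retained-intron transcripts took 4.81% to 5.0% of all matched reads in the compound libraries, and 4.43% and 4.79% in DMSO.

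In CLK1 these transcripts took, of the gene's reads, 34% and 34.5% with ICG-001, 27.7% and 34.2% with CWP232228 and 34.4% and 34.2% with YB-0158, against 15.3% and 10.3% in DMSO. The log2 usage change was 1.43 (edgeR adjusted p = 0.00108) with ICG-001, 1.29 (edgeR adjusted p = 0.00482) with CWP232228 and 1.43 (edgeR adjusted p = 0.00162) with YB-0158. CLK1-210, which keeps introns 3 and 4, alone took 20.3% and 24.2% with ICG-001, 14.8% and 25.7% with CWP232228 and 23% and 26.4% with YB-0158, against 4.44% and 4.9% in DMSO. The ICG-001 call held with each library left out, whereas the CWP232228 call ended without replicate 2 of CWP232228 (1.12, edgeR adjusted p = 0.19) and the YB-0158 call without replicate 1 of YB-0158 (1.43, edgeR adjusted p = 0.057). In CLK4, whose CLK4-203 keeps the same pair of introns, the class took 46.3% and 40.8% with ICG-001, 22.8% and 35.1% with CWP232228 and 41.1% and 36.1% with YB-0158, against 20.9% and 14% in DMSO. It lay above both DMSO libraries in every compound library, but was not called. Its log2 usage changes were 1.33 (edgeR adjusted p = 0.39) with ICG-001, 0.76 (edgeR adjusted p = 0.75) with CWP232228 and 1.15 (edgeR adjusted p = 0.58) with YB-0158. Such a position was common: of all 5339 genes with the class, 2793, 2614 and 2712 lay above both DMSO libraries, in the same order of compounds.

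In SRSF5, an SR protein that binds exonic enhancers, the class took 40.7% and 40.9% with ICG-001, 37.6% and 39% with CWP232228 and 43.3% and 43% with YB-0158, against 25.4% and 20.5% in DMSO. Its log2 usage change was 0.83 (edgeR adjusted p = 0.00282) with ICG-001, 0.74 (edgeR adjusted p = 0.011) with CWP232228 and 0.91 (edgeR adjusted p = 0.00171) with YB-0158. In SRSF4, a longer SR protein chosen after its values were seen, it took 8.21% and 8.42% with ICG-001, 9.53% and 11.4% with CWP232228 and 7.73% and 8.01% with YB-0158, against 2.83% and 2.03% in DMSO, called with ICG-001 (1.77, edgeR adjusted p = 0.049) and CWP232228 (2.10, edgeR adjusted p = 0.016). In TRA2B it took 32.6% and 28.6% with ICG-001, 29% and 35.4% with CWP232228 and 28.2% and 28.7% with YB-0158, against 20.1% and 18.1% in DMSO, called with ICG-001 (0.67, edgeR adjusted p = 0.028) and CWP232228 (0.76, edgeR adjusted p = 0.017). The compound libraries of these 3 genes lay above both DMSO libraries without overlap. So did those of 2793 of all 5339 genes with the class with ICG-001, 2614 with CWP232228 and 2712 with YB-0158. The calls were fragile: each of them ended without either library of its compound, with edgeR adjusted p between 0.054 and 0.45, and those of SRSF4 with ICG-001 and CWP232228, TRA2B with ICG-001 and SRSF5 with CWP232228 also without DMSO replicate 2 (0.13, 0.054, 0.054 and 0.054).

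A further 4 members were called, and were chosen after their values were seen. In HNRNPA2B1 the class took 6.93% and 6.25% with ICG-001, 5.22% and 6.34% with CWP232228 and 5.54% and 4.85% with YB-0158, against 3.2% and 1.78% in DMSO. It was called in each comparison, with log2 usage changes of 1.40 (edgeR adjusted p = 0.00108) with ICG-001, 1.22 (edgeR adjusted p = 0.00482) with CWP232228 and 1.06 (edgeR adjusted p = 0.012) with YB-0158. In SRSF9 it took 8.18% and 10.0% with ICG-001, 7.6% and 8.74% with CWP232228 and 8.51% and 8.52% with YB-0158, against 4.15% and 4.04% in DMSO, called with ICG-001 (1.16, edgeR adjusted p = 0.035). In HNRNPH1 it took 36% and 36.6% with ICG-001, 38.7% and 42.4% with CWP232228 and 34.3% and 34.4% with YB-0158, against 28.8% and 24.1% in DMSO, called with CWP232228 (0.61, edgeR adjusted p = 0.00965). In HNRNPU, a nuclear matrix protein, it took 8.89% and 13.9% with ICG-001, 12.3% and 15.6% with CWP232228 and 10.2% and 11.6% with YB-0158, against 7.56% and 8.29% in DMSO, also called with CWP232228 (0.83, edgeR adjusted p = 0.044). Each of these calls ended without either library of its compound, with edgeR adjusted p between 0.063 and 0.55, that of SRSF9 also without DMSO replicate 2 (0.058), and that of HNRNPU without either DMSO library (0.17 and 0.16). With the GC content and length correction 14, 15 and 11 members were called higher in this class, and with limma's diffSplice 13, 12 and 12. The shares of all genes called in these settings are not given here, and nothing particular to the members is read from these counts.

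**Figure D4:**
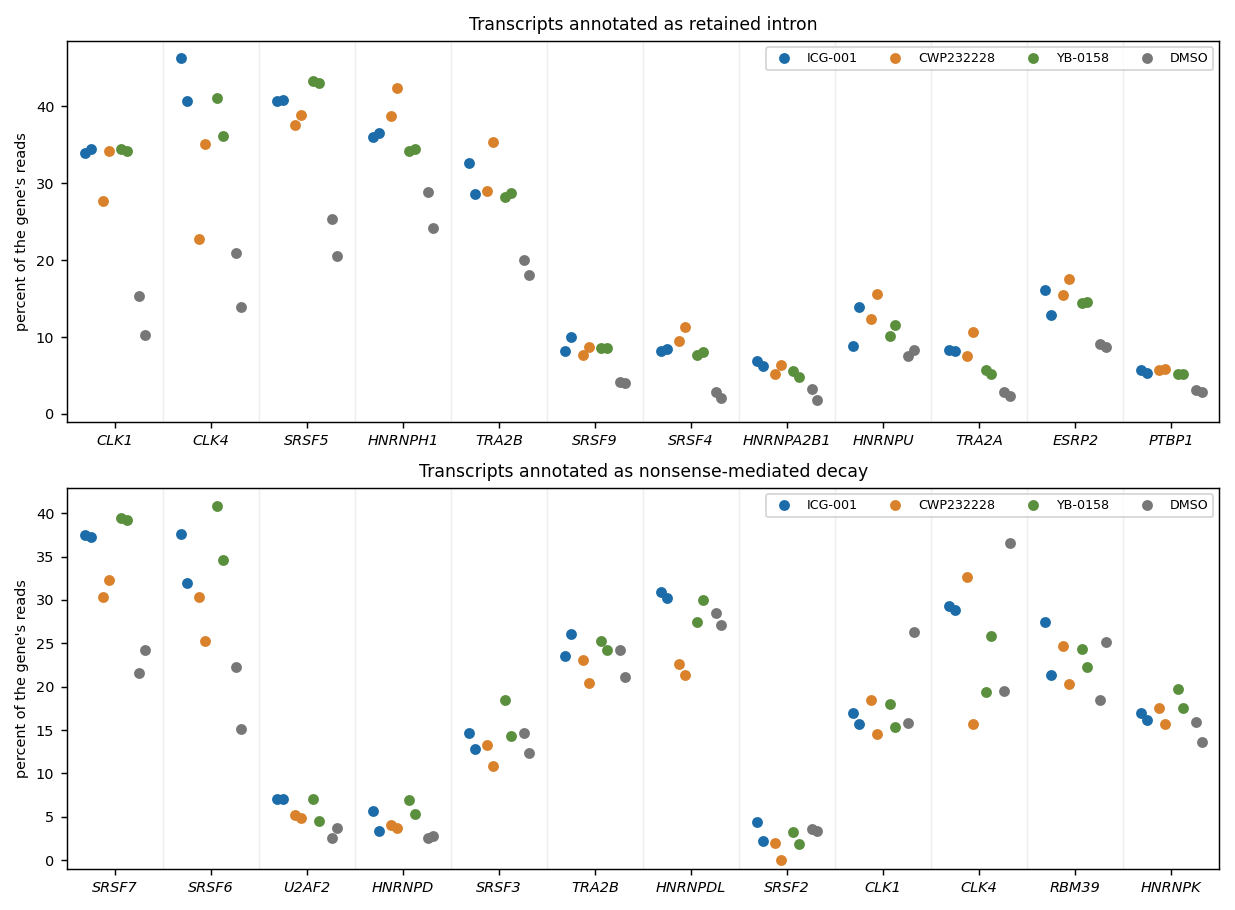
Percent of a gene's estimated reads in transcripts annotated as retained intron (upper panel) and as nonsense-mediated decay (lower panel), for 12 genes each; points are libraries, 2 per group, in the order ICG-001, CWP232228, YB-0158 and DMSO within a gene. In the upper panel the DMSO points lie lowest in every gene shown (CLK1 at 15.3% and 10.3%), while in the lower panel they do so in SRSF7 (21.6% and 24.2%), SRSF6, U2AF2 and HNRNPD but not in TRA2B, SRSF3, CLK1 or CLK4.

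Multiplying the level of a gene by the share of a class shows which transcripts its change lay in. The coding transcripts of CLK1 were at 31.2 and 35 CPM with ICG-001, 30.9 and 31.1 with CWP232228 and 29.3 and 31.7 with YB-0158, against 31.9 and 30.3 CPM in DMSO, and overlapped between each compound and DMSO. Its retained-intron transcripts were at 21.6 and 24.3 CPM with ICG-001, 15.9 and 20.9 with CWP232228 and 21.2 and 21.6 with YB-0158, against 7.06 and 4.91 CPM in DMSO. The difference of CLK1 from DMSO was thus, in these uncorrected values, in the retained-intron transcripts. In SRSF5 the coding transcripts were at 67.1 and 76.1 CPM with ICG-001, 72.9 and 74.5 with CWP232228 and 71.1 and 66.5 with YB-0158, against 102 and 104 CPM in DMSO. Its retained-intron transcripts were at 53.2 and 56.6 CPM with ICG-001, 51 and 55.9 with CWP232228 and 59.8 and 56 with YB-0158, against 39.7 and 32.1 CPM in DMSO, so the classes differed from DMSO in opposite directions. These products are descriptions and were not tested.

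**Figure D5:**
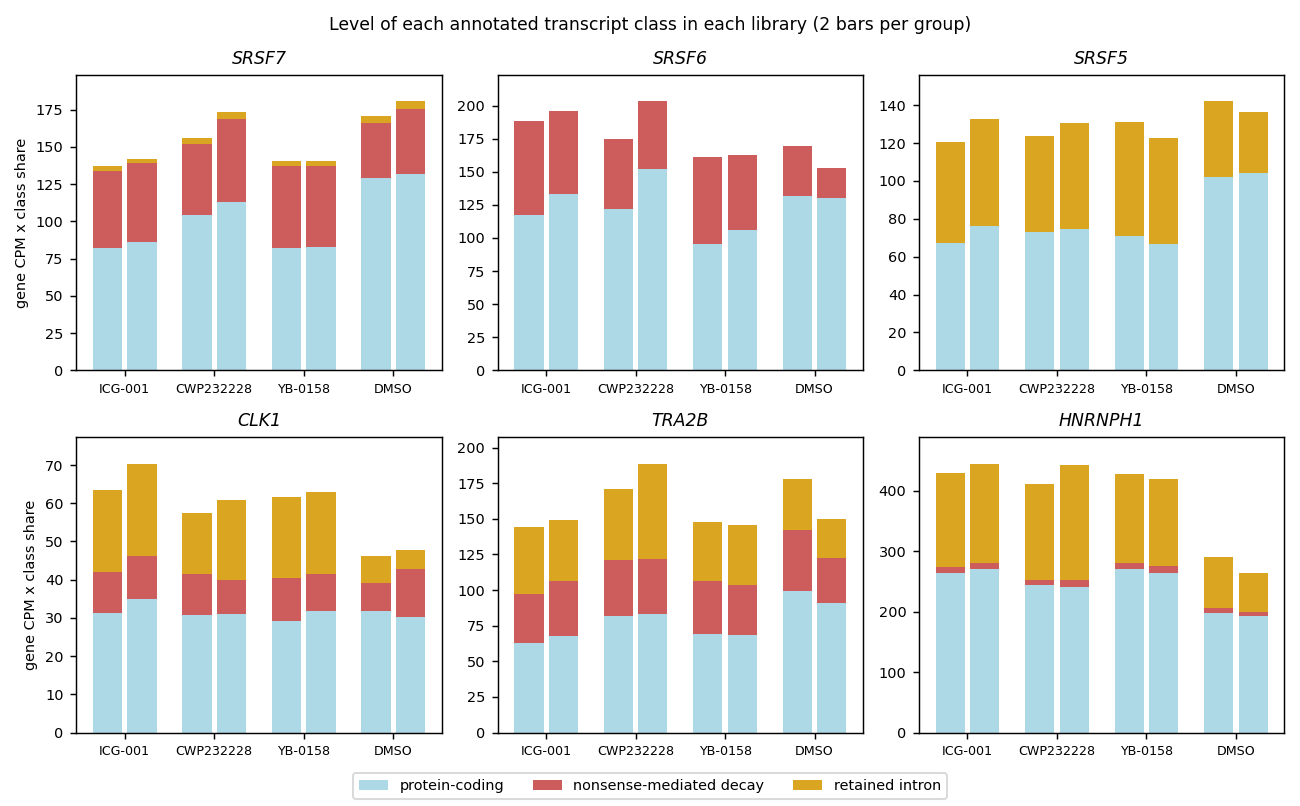
Gene-level CPM divided among protein-coding (blue), nonsense-mediated decay (red) and retained-intron (yellow) transcripts by their share of the gene's reads, for SRSF7, SRSF6, SRSF5, CLK1, TRA2B and HNRNPH1; each bar is 1 library, with ICG-001, CWP232228 and YB-0158 left of DMSO, and transcripts of other classes are left out. In CLK1 the blue part is of like height in every bar (29.3 to 35.0 CPM) and the yellow part is taller with the compounds, and in SRSF5 and SRSF7 the blue part is lower with the compounds.

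Transcripts annotated to NMD showed a narrower pattern. Of 28 members with such transcripts, 2 had a higher share with ICG-001, none with CWP232228 and 2 with YB-0158, and none had a lower share. Of all 3830 genes with the class, 1.8%, 1.25% and 1.31% were called higher. The medians of the members were 0.03, -0.13 and 0.11, and those of all genes 0.12, 0.06 and 0.16. With CWP232228, 0 members were called in edgeR, 4 had an unadjusted p under 0.05, and limma's diffSplice called 1.

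SRSF7 was the clearest case. Its NMD transcripts took 37.5% and 37.3% with ICG-001, 30.4% and 32.3% with CWP232228 and 39.5% and 39.2% with YB-0158, against 21.6% and 24.2% in DMSO. The log2 usage change was 0.70 (edgeR adjusted p = 0.013) with ICG-001, 0.45 (edgeR adjusted p = 0.23) with CWP232228 and 0.78 (edgeR adjusted p = 0.00556) with YB-0158. SRSF7-208, with the retained intron 3 whose early stop codon is shown above, took 32.9% and 33.5% with ICG-001, 27.6% and 29.4% with CWP232228 and 35.6% and 35.1% with YB-0158, against 19.5% and 22.8% in DMSO. The coding transcripts of SRSF7 were at 82.3 and 85.8 CPM with ICG-001, 104 and 113 with CWP232228 and 81.8 and 82.5 with YB-0158, against 129 and 132 CPM in DMSO. Its NMD transcripts were at 51.4 and 53 CPM with ICG-001, 47.4 and 55.8 with CWP232228 and 55.6 and 54.9 with YB-0158, against 36.9 and 43.7 CPM in DMSO. The coding transcripts were thus lower and the NMD transcripts higher than both DMSO libraries in every compound library. The SRSF7 calls ended without either ICG-001 library (edgeR adjusted p = 0.16 and 0.13) and without either YB-0158 library (0.095 and 0.082).

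SRSF6 is an SR protein with a poison exon. Its NMD class took 37.6% and 32% with ICG-001, 30.4% and 25.2% with CWP232228 and 40.9% and 34.6% with YB-0158, against 22.3% and 15.1% in DMSO, called with YB-0158 (1.00, edgeR adjusted p = 0.038) and not with ICG-001 (0.88, edgeR adjusted p = 0.058) or CWP232228 (0.55, edgeR adjusted p = 0.28). That of U2AF2 took 7.04% and 7.04% with ICG-001, 5.23% and 4.87% with CWP232228 and 7.02% and 4.54% with YB-0158, against 2.5% and 3.76% in DMSO, called with ICG-001 (1.17, edgeR adjusted p = 0.015). Both were named after their values were seen, and the matched transcripts of SRSF6 are partial. The SRSF6 call ended without replicate 1 or 2 of YB-0158 (edgeR adjusted p = 0.29 and 0.12) or DMSO replicate 2 (0.097), and the U2AF2 call without either ICG-001 library (0.11 and 0.099) or DMSO replicate 1 (0.064).

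Without the correction for GC content and length, other genes known for poison exons were not called in the NMD class. In TRA2B the class took 23.6% and 26% with ICG-001, 23.1% and 20.5% with CWP232228 and 25.3% and 24.3% with YB-0158, against 24.2% and 21.1% in DMSO. In SRSF3 it took 14.7% and 12.8% with ICG-001, 13.3% and 10.8% with CWP232228 and 18.5% and 14.4% with YB-0158, against 14.7% and 12.4% in DMSO. HNRNPDL, a relative of HNRNPD known to regulate its own splicing, had 30.9% and 30.2% with ICG-001, 22.6% and 21.3% with CWP232228 and 27.4% and 30.0% with YB-0158, against 28.5% and 27.1% in DMSO. The libraries of TRA2B and SRSF3 overlapped between at least 1 compound and DMSO. SRSF2 was between 0% and 4.38% and was not called. PTBP1, whose skipped exon sends it to NMD, stayed below 1% in this class. CLK1 had 16.9% and 15.7% with ICG-001, 18.5% and 14.5% with CWP232228 and 18% and 15.4% with YB-0158, against 15.8% and 26.3% in DMSO. CLK4 had 29.3% and 28.8% with ICG-001, 32.6% and 15.6% with CWP232228 and 19.4% and 25.8% with YB-0158, against 19.5% and 36.6% in DMSO, with the DMSO libraries of both genes far apart. After the correction for GC content and length 9, 6 and 7 members were called higher in the NMD class, SRSF7, SRSF6 and U2AF2 among them in each comparison. SRSF3 was then called with ICG-001 (0.59, edgeR adjusted p = 0.028) and YB-0158 (0.67, edgeR adjusted p = 0.018), and HNRNPDL with ICG-001 (0.53, edgeR adjusted p = 0.0098). The correction raised the log2 usage change of every member with this class in each comparison. HNRNPL, not called, went from -0.22 to 0.25 with ICG-001. The share of all genes called with the correction is not given here, so nothing particular to these members is read from the added calls.

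Other parts of the splicing machinery, from gene lists outside the 46 members, moved as follows, without the correction for GC content and length. How each gene named from these lists fared with the correction, or with a library left out, is not given here. Of all genes tested, 24% fell and 24.8% rose with ICG-001, 21.2% and 21.6% with CWP232228, and 22.1% and 21.7% with YB-0158. The lists were not tested against these shares. Of 55 core spliceosome genes, 31 fell and 9 rose with ICG-001, 23 fell and 11 rose with CWP232228, and 28 fell and 9 rose with YB-0158, with medians of -0.30, -0.18 and -0.24. The genes named here are those with the smallest p in at least 1 comparison, and their log2 fold changes are given for ICG-001, CWP232228 and YB-0158 in turn, all called. PRPF31 is a protein of the U4/U6 snRNP. It was at -0.98, -0.78 and -0.96, and EFTUD2, a GTPase of the U5 snRNP, at -0.74, -0.38 and -0.64. The Sm proteins SNRPD2 and SNRPB were at -0.86, -0.72 and -0.78 and at -0.83, -0.65 and -0.77, and LSM2, an Sm-like protein, at -0.94, -0.58 and -0.95. PLRG1, a protein of the PRP19 complex, went up (0.87, 0.46 and 0.76).

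Of 20 genes of NMD and the exon junction complex, 8 rose and 5 fell with ICG-001, 7 and 3 with CWP232228, and 8 and 4 with YB-0158, with medians of 0.12, 0.0024 and 0.11. UPF3B links the exon junction complex to NMD. It was at 0.82, 0.50 and 0.78, all called higher. Of 43 tested among 49 other splicing regulators, 17 rose and 12 fell with ICG-001, 21 and 9 with CWP232228, and 13 and 9 with YB-0158, with medians of 0.02, 0.22 and 0.10. PUF60 binds pyrimidine tracts beside U2AF2. It was at -0.64, -0.54 and -0.54, and SCAF1, an SR-related protein, at -0.55, -0.53 and -0.47, all called lower. PNN is a protein of nuclear speckles. It was at 0.64, 0.64 and 0.50, and the kinase DYRK1A at 0.72, 0.64 and 0.67, all called higher. KHDRBS1, also a splicing regulator, averaged 215 ± 11.6 CPM with ICG-001, 239 ± 9.92 with CWP232228 and 225 ± 8.26 with YB-0158, against 231 ± 21.3 CPM in DMSO (SD, n = 2 each), and was not called (-0.11, 0.04 and -0.04).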

How the data were processed

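RNA of HT29 cells was measured in 8 libraries, grouped by their titles. Salmon 1.3.0, fastp, DESeq2 and the build GRCh38 are named, without a role, in the submitters' processing notes. Per the file headers, the deposited files give Salmon's estimated counts and TPM per transcript. The authors' deposited comparison tables give a gene's mean signal (normalized counts), log2 fold change and p-value, and FPKM per library. Their annotation release and filters are not stated there.

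Of 228754 transcripts, 204677 (89.5%) matched GENCODE release 29 on GRCh38 by identifier without version. Unmatched transcripts held 1.54% to 1.85% of a library's reads and were not used. The matched estimated counts were summed per gene and rounded, and 16449 of 58193 genes passed filterByExpr. Sequences and transcript classes came from the same GENCODE release.

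Genes were tested in edgeR 4.0.16 (R 4.3.3; TMM, robust quasi-likelihood, 4 groups in 1 model, 4 residual degrees of freedom), and transcripts and classes with diffSpliceDGE, each adjusted by Benjamini-Hochberg over all features. CPM are counts scaled to library size with the effective size of TMM. Log2 usage changes compare a class with the rest of its gene. The GC content and length correction is a loess fit (span 0.3) per library, used as an offset. FPKM were tested with limma 3.58.1 on log2(FPKM + 0.1) for genes with a mean of at least 0.5 FPKM, on which scale changes of low genes are understated. TPM served to order levels, for the cell markers and, scaled by length, as an alternative input to the gene tests. DESeq2 1.42.0 was an alternative. The scripts were tested on simulated data.

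Per-library values are given for the 5 members with the largest called rise and fall per comparison, for called transcript changes of at least 10 points, and for SRSF2, SRSF3, SRSF7, TRA2B, HNRNPDL, the PTBP and CLK genes, ESRP1, ESRP2, RBFOX2 and MBNL1, and from other lists for the 3 genes with the smallest p. One gene that this rule names is not reported here. The members and lists were chosen with earlier results of these data known. Depth covers counting error only, which is small beside the spread between libraries for all members but the lowest.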

Additional observations from a re-analysis of the deposited data

How the results depend on the processing

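With DESeq2 size factors the members called at the gene level were 28, 22 and 26, with DESeq2's own test 30, 23 and 28, and with no low-count filter 31, 25 and 27, within 1.5 times of the values above. The GC content and length correction turned the sign of 29 member values, of which the 13 called with or without it are printed here: SRSF6 (-0.061 with ICG-001, -0.26 with YB-0158), SRSF8 (-0.043 with ICG-001, -0.31 with CWP232228), HNRNPAB (0.16 with ICG-001), HNRNPU (-0.11 with ICG-001, -0.010 with CWP232228), SRPK1 (-0.041, -0.049 and -0.16), ESRP2 (0.16 with CWP232228), and CLK1 and CLK4 with CWP232228 (-0.042 and -0.0028). It brought the other regulators called with CWP232228 to 16, the members called in the NMD class to 9, 6 and 7, and in the retained-intron class to 14, 15 and 11. Length-scaled TPM gave 19 other regulators with ICG-001, and 11 members, 19 core spliceosome, 4 NMD and 18 other regulator genes with CWP232228. A fit of only the 4 libraries compared gave 18 other regulators with ICG-001, 9 members, 19 core spliceosome, 6 NMD and 19 other regulator genes with CWP232228, and 17 members with YB-0158. FPKM with limma gave 18 other regulators with CWP232228. The stricter transcript filter left 0, 0 and 0 members with changed usage and 1 in the NMD class with YB-0158, and limma's diffSplice gave 24, 10 and 20, with 13, 12 and 12 in the retained-intron and 1 in the NMD class with CWP232228. The cause of these moves was not tested, and the shares of all genes called in these settings are not given here.

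Whether the replicate numbers pair the samples is not labelled. Deviations of DMSO from its mean correlated with those of same-numbered compound libraries at -0.35, -0.37 and -0.28. Those of the compounds correlated with one another at 0.42, 0.52 and 0.27. With the replicate number as a block, 26, 20 and 22 members were called at the gene level with ICG-001, CWP232228 and YB-0158, 2, 3 and 2 for usage, 3, 0 and 2 for the NMD class and 5, 6 and 3 for the retained-intron class. The calls then missing were SRSF6 with ICG-001, MBNL1 with CWP232228 and SRSF4, SRSF5, SRSF10 and PTBP3 with YB-0158 at the gene level (edgeR adjusted p between 0.052 and 0.064), TRA2B in the retained-intron class with ICG-001 and CWP232228 (0.064 and 0.052), and the usage of SRSF5 with CWP232228 (0.27). SRSF6 was added in the NMD class with ICG-001 (0.024), and 1 other member for usage with CWP232228. With the block and the GC content and length correction, 21 core spliceosome, 6 NMD and 14 other regulator genes were called with CWP232228, and SRSF6 was at -0.061 and -0.26, SRSF8 at -0.043 and -0.31, SRPK1 at -0.041, -0.049 and -0.16, HNRNPU at -0.010, CLK1 at -0.042 and CLK4 at -0.003.

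Leaving out each library in turn gave 20 to 33 members at the gene level with ICG-001, 6 to 28 with CWP232228 (6 without its replicate 2) and 12 to 32 with YB-0158 (15 and 12 without its replicates 1 and 2). It gave 2 to 8, 1 to 6 and 2 to 8 for usage, 0 to 4, 0 to 2 and 0 to 3 for the NMD class, 1 to 8, 0 to 7 and 0 to 7 for the retained-intron class, 26 to 44, 19 to 45 and 21 to 42 core spliceosome genes, 9 to 13, 4 to 14 and 7 to 13 NMD genes, and 14 to 32, 11 to 35 and 12 to 30 other regulators. A lone library is then assumed to vary like the other groups. With 2 libraries per group the fits had 4 residual degrees of freedom. PTBP2 and CLK4 had the fewest reads of the members in DMSO, and their counting error is the largest.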
